A study of Mus musculus with 119 samples.

Results

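Satellite cells of a middle CD34 gate (CD34Med) were compared with cells of a high one (CD34Hi), sorted from skeletal muscle of young Pax7-ROSAYFP mice. The 8 libraries, 4 of each gate, were chosen by their labels and column names from the 119 samples of the series. In these mice a YFP reporter at the Rosa locus marks cells of the Pax7 lineage. The labels give neither the form of the recombinase, nor whether YFP was gated, nor the age in months. Muscle was resting and uninjured, and RNA was taken straight after the sort without culture. The sample titles of this experiment name no treatment. Per the series description, cells bearing CD45, CD31 or Sca-1 were removed and double-positive cells for CD34 and α7-integrin were kept. That text covers the whole series, while the count table calls the lowest gate of this experiment Neg, so how it applies to that gate is not stated. In the count table the columns of these gates read High, Low and Neg; by falling CD34 they were taken as the CD34Hi, CD34Med and CD34Lo of the labels. The 4 CD34Lo libraries of the same experiment entered the fit and show the next step of falling CD34. Young wild-type (WT) CD34Hi and CD34Lo libraries of the other experiments were used to look genes up. These were 4 and 4 in experiment 1, 4 and 4 in experiment 2, and 3 and 2 in experiment 3. Whether libraries of a gate came from separate animals is not stated, so the p-values measure the spread between these libraries, which may be technical in part. The sex-linked transcripts Xist and Ddx3y, given at the end, differed between library numbers, with the same order of Ddx3y in each gate.

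Satellite cells are the stem cells of skeletal muscle. At rest they express Pax7 and Myf5 and do not divide. After activation they express Myod1, and as they commit to differentiation they express Myog, leave the cell cycle, fuse and build sarcomeres. Myod1 and Myog proteins bind E-boxes, short DNA words of the form CANNTG, and MEF2 proteins bind an A/T-rich box beside them. CD34, a sialomucin of the cell surface, is found on many quiescent satellite cells. The question here was which genes differ at the first step down in CD34.

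Library totals of the 8 libraries ran from 4.133 to 7.084 M counts, and 13317 to 14347 genes had a count in each. All 10 satellite cell markers on the marker list (Pax7, Myf5, Itga7, Vcam1, Cd34, Calcr, Sdc4, Cdh15, Chrdl2 and Des) were counted in every one of the 8 libraries. Ptprc, which encodes CD45, lay between 0 and 2.11 CPM (counts scaled to the library's total) in CD34Hi and between 0 and 10.6 CPM in CD34Med. Pecam1, which encodes CD31, lay between 1.59 and 17.2 CPM over both gates. Ly6a, which encodes Sca-1, lay between 32.9 and 121 CPM. CD34Hi 3 and CD34Med 3 stood apart in ribosomal protein genes, whose summed level was 95960 CPM in CD34Hi 3 and 103100 CPM in CD34Med 3 against 51410 to 68090 CPM in the other 6. CD34Lo 3 did not share this, at 45760 CPM against 47730 to 52140 CPM in the other CD34Lo libraries. A fit without the libraries numbered 3 is given with the levels by library.

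Among 12133 genes tested, 27 rose in CD34Med and 0 fell (0.223% called; edgeR's quasi-likelihood test, Benjamini-Hochberg adjusted p under 0.05 over all genes tested). At an unadjusted p under 0.05, 201 genes were higher and 95 lower. DESeq2 called 63 genes, 59 higher and 4 lower. A fit with the library number as a block called 36, 32 higher and 4 lower. The 27 genes were led by Myog, the transcription factor of myogenic commitment. Beside it stood the fusion protein Tmem8c (myomaker), subunits of the embryonic acetylcholine receptor, actins and other sarcomere genes, and the cell cycle inhibitor Cdkn1c. In bulk RNA, more cells that express a gene and more RNA in each such cell cannot be told apart.

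Of the 27 genes, 24 had all 4 CD34Med libraries above all 4 CD34Hi libraries, against 0.948% of all genes tested. The exceptions were Ttn, E2f8 and Myh8. All 27 were higher in CD34Med than in CD34Hi of the same library number in 4 of 4 numbers. The 27 were called on these same libraries, so this order describes them and adds no support. For the 18 genes with more than 3 counts over the CD34Hi libraries, the log2 fold change ran from 2.45 to 7.77 with a median of 4.43. The remaining 9 genes (Tnnt2, Mybph, Chrng, Myo18b, Adora1, Tnni1, Mycl, E2f8 and Myh8) had 1 to 3 counts over all 4 CD34Hi libraries, so that their size is given below as a ratio of pooled counts with a 95% counting interval. Such intervals cover counting error only, since amplified reads are not independent molecules.

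Upstream sequence of 5 of the 27 genes is shown because these genes moved together and E-box words are what myogenic factors bind. Each run is the 250 bases before the first listed RefSeq transcript start (build GRCm38.p6), 5′ to 3′ on the gene's strand, with every CANNTG in capitals.
Myog (chr1:134289754-134290003, plus strand): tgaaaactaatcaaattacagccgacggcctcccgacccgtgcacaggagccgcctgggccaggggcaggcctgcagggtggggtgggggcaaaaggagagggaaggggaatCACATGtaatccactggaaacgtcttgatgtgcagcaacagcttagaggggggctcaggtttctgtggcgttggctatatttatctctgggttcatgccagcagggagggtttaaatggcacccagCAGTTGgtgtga
Chrng (chr1:87205561-87205810, plus strand): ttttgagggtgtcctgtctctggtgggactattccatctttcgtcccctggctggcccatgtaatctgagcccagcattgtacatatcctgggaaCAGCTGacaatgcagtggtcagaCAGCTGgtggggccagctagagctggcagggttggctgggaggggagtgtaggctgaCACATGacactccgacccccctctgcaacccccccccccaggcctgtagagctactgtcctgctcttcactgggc
Tnnt2 (chr1:135836084-135836333, plus strand): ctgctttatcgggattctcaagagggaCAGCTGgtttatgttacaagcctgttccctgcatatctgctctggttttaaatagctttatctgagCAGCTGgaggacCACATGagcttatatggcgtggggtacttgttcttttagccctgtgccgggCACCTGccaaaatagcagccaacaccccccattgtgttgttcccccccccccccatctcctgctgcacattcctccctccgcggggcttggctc
Mybph (chr1:134193198-134193447, plus strand): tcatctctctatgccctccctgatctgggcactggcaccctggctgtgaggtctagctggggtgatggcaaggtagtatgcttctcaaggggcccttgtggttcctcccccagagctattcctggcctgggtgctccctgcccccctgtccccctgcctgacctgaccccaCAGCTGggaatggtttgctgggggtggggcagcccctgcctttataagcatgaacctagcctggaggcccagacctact
Acta1 (chr8:123894776-123895025, minus strand): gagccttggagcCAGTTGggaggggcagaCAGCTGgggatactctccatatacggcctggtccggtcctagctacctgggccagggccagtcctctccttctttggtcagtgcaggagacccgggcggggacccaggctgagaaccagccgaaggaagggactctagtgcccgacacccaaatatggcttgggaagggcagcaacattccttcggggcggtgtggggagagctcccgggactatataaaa
Chrng held CAGCTG at positions -155 and -132 and CACATG at -75 from the start, and Tnnt2 held CAGCTG at -223 and -157. Mybph held a single CAGCTG at -79, Acta1 held CAGTTG at -238 and CAGCTG at -221, and Myog held CACATG at -138 and CAGTTG at -12. These 5 regions share the general word, and 4 of the 5 hold the CAGCTG form, Myog being the exception. They are shown as examples and do not stand for the 27 genes. Of the promoters described next, those of Adora1, Myzap, E2f8 and 1500015O10Rik held no CANNTG. Actc1 held only CAACTG at position 9, after the start.

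RefSeq promoters, from 250 bases before the start to 50 after it, were listed for 22 of the 27 genes. CANNTG, which reads the same on both strands, lay in 18 of them (81.8%), against 72.1% of 27025 gene promoters and 63.1% of the promoters of genes tested. CAGCTG, which is one form of CANNTG, lay in 8 (36.4%) against 16.1% of all promoters and 15% of those tested. The MEF2 box, searched on both strands, lay in 4 (18.2%; Klhl41, Ttn, Myh8 and Mylk4) against 3.26% and 1.68%. A match describes the letters only and is no evidence of binding.

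By position, 9 of the 27 genes lay on chromosome 1 (33.3%), which holds 6.0% of the tested genes that could be placed. Chrnd (chr1:87190597-87200070) and Chrng (chr1:87205811-87211835) are neighbours. Tnni1 (chr1:135783033-135810989) and Tnnt2 (chr1:135836315-135852268) lie close to each other, and Myog lies at chr1:134290004-134292548. Mybph (chr1:134193418-134201237) and Adora1 (chr1:134199215-134235457) are read from opposite strands and overlap at their ends. The sources used here do not say that reads were counted by strand, so reads in the overlap cannot be assigned to one of these genes. Mylk4 (chr13:32700824-32806773) overlaps the tested gene Wrnip1, and the same limit holds there.

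Among 22 tested myogenic regulators 2 rose, 0 fell and 20 did not pass the threshold (median log2 fold change 0.15 against -0.003 over all genes tested). Over all genes tested 0.223% rose. Myog stood at 2.22, 4.23, 1.18 and 2.76 CPM in CD34Hi libraries 1 to 4, and at 987, 233, 74.5 and 317 CPM in CD34Med libraries 1 to 4. The gates did not overlap, and within CD34Med library 1 was highest and library 3 lowest. The log2 fold change was 7.31 ± 0.73 (SE; n = 4 and 4; edgeR adjusted p = 0.000241). Rbm24, an RNA-binding protein of muscle differentiation, read 0.785, 0.793, 1.18 and 0 CPM in CD34Hi. In CD34Med it read 8.17, 5.26, 6.34 and 12.6 CPM, again without overlap and with library 4 highest (log2 fold change 3.53 ± 0.68, edgeR adjusted p = 0.041). Tcf12, an E-protein partner of the myogenic factors, averaged 42.2 ± 9.33 CPM in CD34Hi and 72.9 ± 34 CPM in CD34Med (SD, n = 4), with overlapping gates and an edgeR adjusted p of 1. Mef2c averaged 4.90 ± 5.33 and 16.8 ± 14.8 CPM, also with overlap and an edgeR adjusted p of 1.

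The other lineage factors named by rule, Pax7, Myf5, Myod1 and Myf6, did not pass the test. Pax7, the defining factor of satellite cells, stood at 30.7, 18.2, 17.0 and 19.3 CPM in CD34Hi and at 21.3, 32.8, 17.8 and 26.0 CPM in CD34Med. Myf5 averaged 427 ± 94.4 and 438 ± 192 CPM, and Myf6 averaged 3.01 ± 0.841 and 2.88 ± 1.43 CPM (SD, n = 4). The gates overlapped for each of these 3 genes. Myod1 read 98.5, 53.6, 220 and 149 CPM in CD34Hi and 103, 120, 280 and 253 CPM in CD34Med. It was higher in CD34Med for 4 of 4 numbers, but the gates overlapped and its log2 fold change of 0.54 ± 0.40 had an edgeR unadjusted p of 0.199 and an adjusted p of 1.

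**Figure D1:**
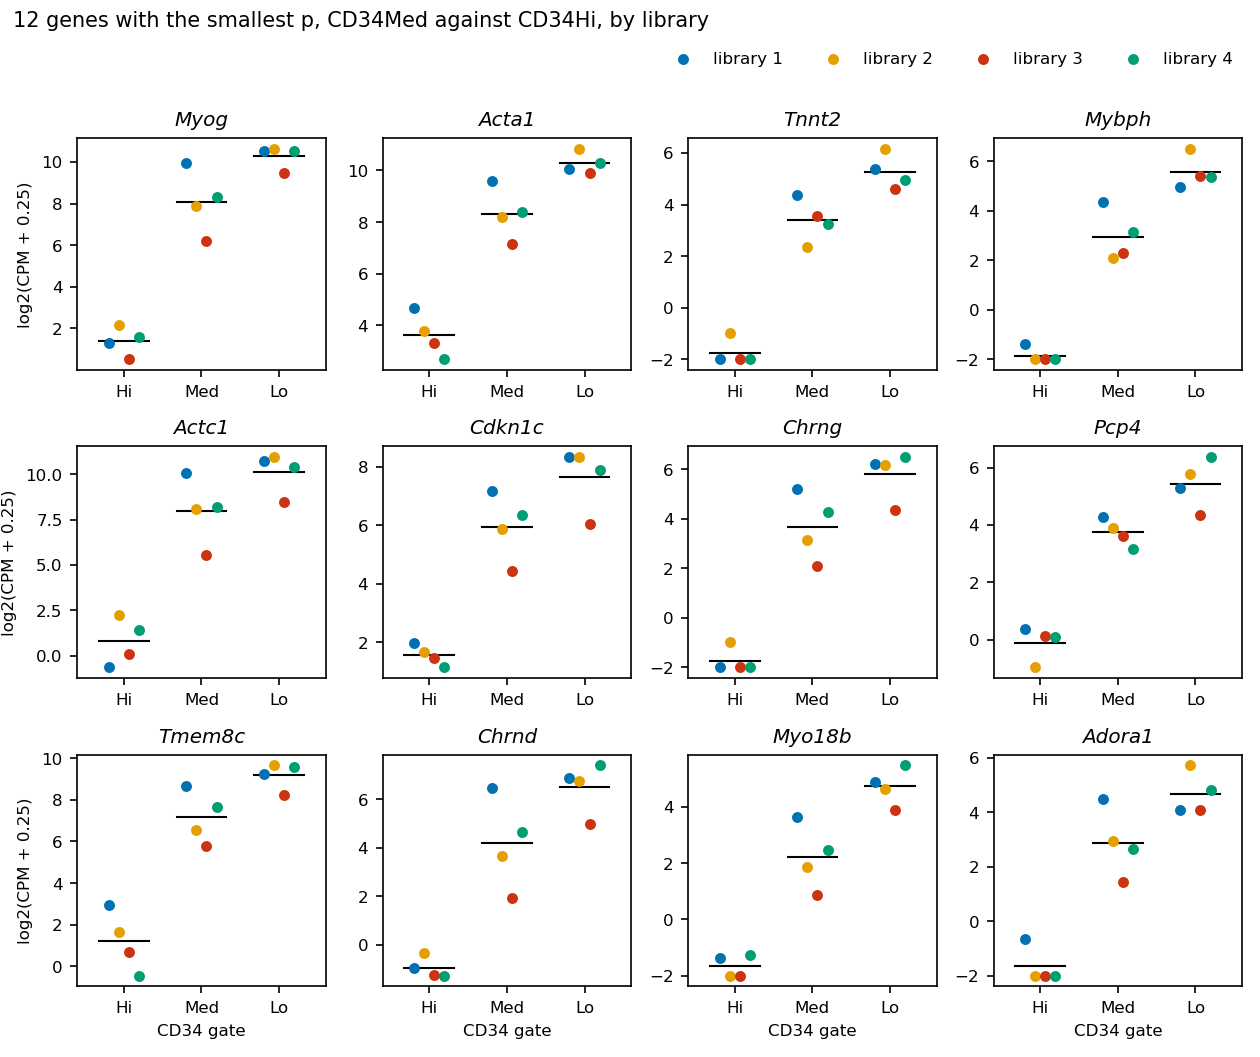
Level of 12 genes in each library, as log2(CPM + 0.25), for the CD34Hi, CD34Med and CD34Lo gates; the colour is the library number and the bar is the mean of the 4 plotted values. In each panel the 4 CD34Med points lie above the 4 CD34Hi points, as for Myog at 74.5 to 987 CPM against 1.18 to 4.23 CPM.

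Of 21 tested fusion genes 1 rose and 0 fell, with a list median of 0.10, while 0.223% of all genes tested rose. The fusion gene that rose was Tmem8c, whose product myomaker is required on myoblasts for fusion. Its CD34Hi libraries read 7.59, 2.91, 1.35 and 0.487 CPM and its CD34Med libraries 402, 93.8, 53.9 and 200 CPM. The lowest CD34Med library exceeded the highest CD34Hi library, and the log2 fold change was 5.88 ± 0.76 (edgeR adjusted p = 0.00094). Adam12, a transmembrane metalloprotease found in fusing myoblasts that was in no list, averaged 1.44 ± 1.41 CPM in CD34Hi and 16.6 ± 8.57 CPM in CD34Med (SD, n = 4; edgeR adjusted p = 0.0478). Cdh2, an adhesion molecule of myoblasts, averaged 3.03 ± 1.31 and 7.61 ± 3.45 CPM, with overlapping gates and an edgeR adjusted p of 1.

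Of 12 tested genes of the acetylcholine receptor and synapse, 2 rose (against 0.223% of all genes tested) and 0 fell, with a list median of 0.10. Both are receptor subunits, and one of them, the γ subunit Chrng, belongs to the receptor of embryonic and uninnervated muscle. Chrng read 0, 0.264, 0 and 0 CPM in CD34Hi, which is a single count in all, and 36.7, 8.69, 4.05 and 19.1 CPM in CD34Med. The pooled ratio was 403 (95% counting interval 72 to 15953; edgeR adjusted p = 0.00086). The δ subunit Chrnd read 0.262, 0.528, 0.169 and 0.162 CPM against 88.8, 12.4, 3.52 and 25.2 CPM. Again library 1 was highest and library 3 lowest in CD34Med, with no overlap between gates (log2 fold change 6.87 ± 1.01, edgeR adjusted p = 0.004). The α subunit Chrna1 was already at 67.4 to 164 CPM in CD34Hi and at 163 to 501 CPM in CD34Med. Its gates overlapped narrowly, and its edgeR adjusted p was 0.297.

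Early sarcomere genes held the largest number of called genes: 8 of 33 tested rose and 0 fell, with a list median log2 fold change of 0.87, and 11 of the 33 had no overlap between gates in the upward direction. Over all genes tested 0.223% were called and 0.948% did not overlap in that direction. Actc1, the cardiac actin that developing skeletal muscle uses, read 0.392, 4.49, 0.844 and 2.44 CPM in CD34Hi and 1050, 267, 46.7 and 294 CPM in CD34Med (log2 fold change 7.77 ± 0.98, edgeR adjusted p = 0.00086). The embryonic troponin T gene Tnnt2 had a single count in CD34Hi and read 20.7, 4.87, 11.6 and 9.29 CPM in CD34Med, a pooled ratio of 267 (47.6 to 10587; edgeR adjusted p = 0.00042). Here library 2, not library 3, was the lowest of CD34Med. Mybph, a myosin binding protein, had a single count in CD34Hi and read 20.2, 3.95, 4.58 and 8.46 CPM in CD34Med, a pooled ratio of 217 (38.6 to 8606; edgeR adjusted p = 0.00086).

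Ttn, the giant spring of the sarcomere, differed from these genes in that its gates overlapped. It read 5.75, 7.93, 3.04 and 16.6 CPM in CD34Hi and 169, 94.1, 13.4 and 157 CPM in CD34Med. CD34Med library 3 lay below CD34Hi library 4, and the log2 fold change was 3.70 ± 0.64 (edgeR adjusted p = 0.0153). Myh8, the perinatal myosin heavy chain, stood at 0.176 CPM in CD34Med library 3 and at 1.71 to 18.7 CPM in the other CD34Med libraries. Its pooled ratio was 81.6 (22.3 to 679; edgeR adjusted p = 0.0478). Klhl41, which stabilises thin filaments, averaged 3.02 ± 1.07 and 33.4 ± 29.3 CPM (edgeR adjusted p = 0.017), and the fast light chain Myl1 averaged 3.35 ± 1.26 and 28.2 ± 16.3 CPM (edgeR adjusted p = 0.0112; SD, n = 4). The slow troponin I gene Tnni1 had 3 counts in CD34Hi and 171 in CD34Med, a pooled ratio of 52.0 (17.5 to 254; edgeR adjusted p = 0.0301). How reads shared between related actin or myosin genes were counted is not given in the sources used here, so Acta1, Actc1 and Myh8 carry that uncertainty.

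The adult myofibre list had 1 of 29 tested genes up and 0 down, with a median of 1.05. That gene was Acta1, the skeletal actin, at 25.4, 13.5, 9.62 and 6.17 CPM in CD34Hi and 762, 295, 140 and 339 CPM in CD34Med (log2 fold change 4.81 ± 0.54, edgeR adjusted p = 0.00042). Of its other members, Trdn, a protein of the calcium release complex, had 0 counts in CD34Hi and 86 in CD34Med. That is at least 26.1-fold higher against a floor of 3 counts over the group, with an edgeR adjusted p of 0.0655. Cacng1, a calcium channel subunit, averaged 1.05 ± 0.889 and 9.04 ± 2.34 CPM (edgeR adjusted p = 0.0643), and the oxygen carrier Mb averaged 2.38 ± 2.36 and 13.7 ± 7.19 CPM (SD, n = 4; edgeR adjusted p = 0.231). Over the 5 muscle lists together, 14 of 117 tested genes rose, against 0.223% of all genes tested. Of the 103 that did not pass, 71 had a log2 fold change above 0, against 49.6% of all genes tested. A gene near 0 in CD34Hi passed the filter only through the other gates and could hardly come out lower. Of the tested genes, 5 early sarcomere, 4 adult myofibre and 1 acetylcholine receptor list members had 3 or fewer counts in CD34Hi. The list counts therefore describe these genes and add no support. With the library number as a block, Trdn, Cacng1 and Mb passed (edgeR adjusted p = 0.0416, 0.0171 and 0.0115).

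**Figure D2:**
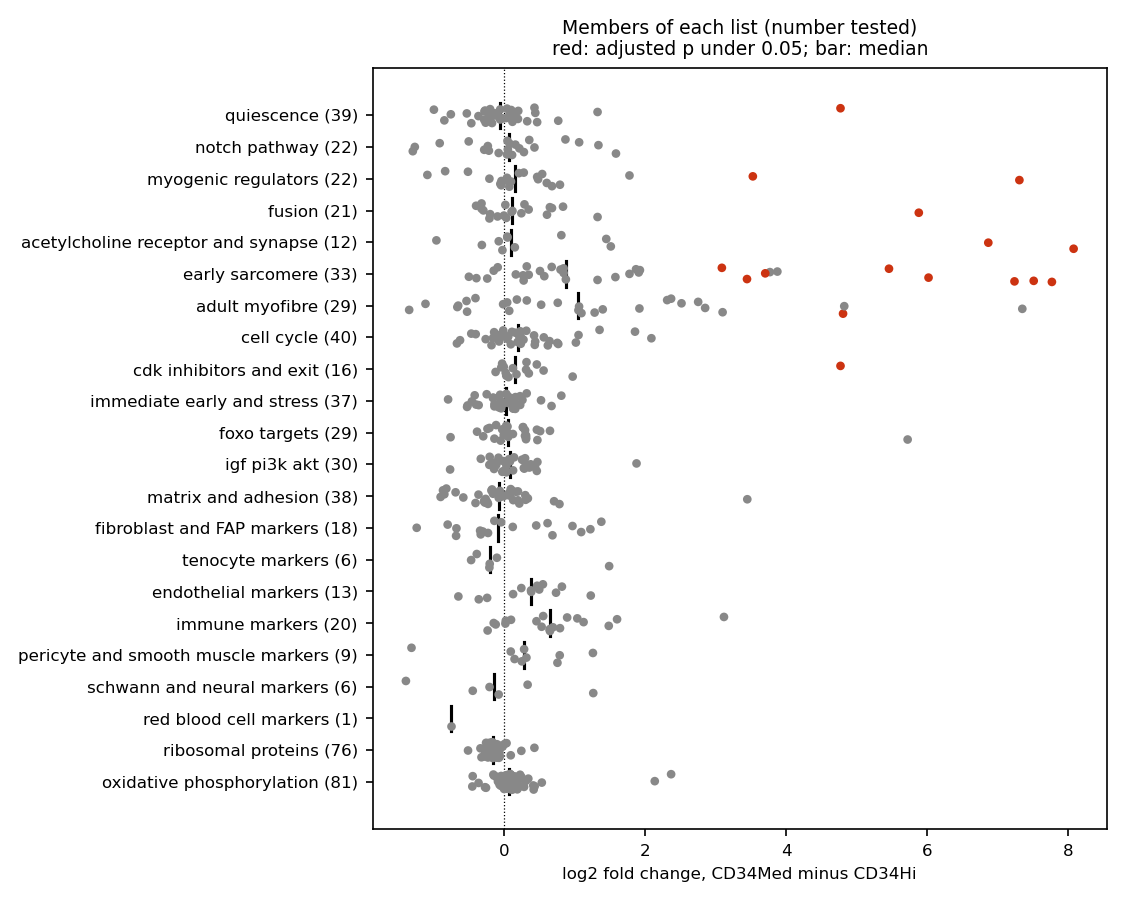
Log2 fold change of CD34Med over CD34Hi for the tested members of each of the 22 gene lists (number tested in brackets); red points have an adjusted p under 0.05 and bars are list medians. The red points lie in the muscle lists and at Cdkn1c, which is drawn in the quiescence and the cyclin-dependent kinase inhibitor lists.

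Cdkn1c, the p57 inhibitor of cyclin-dependent kinases, was the gene that rose among 16 tested genes of cell cycle exit, with 0 down and a list median of 0.15. It read 3.66, 2.91, 2.53 and 1.95 CPM in CD34Hi and 143, 58.4, 21.1 and 81.8 CPM in CD34Med. Its 4 CD34Hi libraries lay close together and far below the lowest CD34Med library (log2 fold change 4.77 ± 0.60, edgeR adjusted p = 0.00086). Cdkn1c was also a member of the quiescence list, in which it was the 1 gene up among 39 tested, with 0 down and a median of -0.07. Beside both lists, 0.223% of all genes tested rose. E2f8, an atypical E2F repressor of the cell cycle that was in no list, had 3 counts in CD34Hi. In CD34Med it read 17.3, 8.29, 0.176 and 8.79 CPM, so that library 3 lay within the range of CD34Hi (pooled ratio 69.6, 23.5 to 340; edgeR adjusted p = 0.0432). Of 40 tested cell cycle genes 0 passed, with a median of 0.20 and 2 genes at an unadjusted p under 0.05. The mitotic spindle factor Tpx2 averaged 4.58 ± 5.07 CPM in CD34Hi and 16.1 ± 6.81 CPM in CD34Med, and the replication helicase subunit Mcm2 averaged 2.35 ± 1.62 and 9.89 ± 10.2 CPM (SD, n = 4; edgeR adjusted p = 1 for each).

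The 12 called genes that were in no list included signalling genes that are not part of the contractile apparatus. Pcp4, a small calmodulin-binding peptide, read 1.05, 0.264, 0.844 and 0.812 CPM in CD34Hi and 19, 14.6, 12.2 and 8.79 CPM in CD34Med (log2 fold change 4.09 ± 0.52, edgeR adjusted p = 0.00086). 1500015O10Rik (Ecrg4 in RefSeq), which encodes a secreted peptide precursor, lay close together in CD34Med, at 14, 14, 12.3 and 10.3 CPM, against 1.18, 2.91, 1.01 and 2.44 CPM in CD34Hi (edgeR adjusted p = 0.00991). The CD34Med values of both spread less than those of Myog, whose highest and lowest were 987 and 74.5 CPM. The adenosine receptor Adora1 had 3 counts in CD34Hi and 251 in CD34Med, a pooled ratio of 76.3 (25.8 to 372; edgeR adjusted p = 0.00734), with the overlap with Mybph described above. The orphan receptor Gpr50 averaged 0.33 ± 0.66 and 14.3 ± 9.05 CPM (edgeR adjusted p = 0.00991).

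Others of the 12 act in the muscle cytoskeleton or in cyclic nucleotide signalling. Myo18b, a myosin needed for sarcomere assembly, had 2 counts in CD34Hi and 146 in CD34Med (pooled ratio 66.6, 18.1 to 555; edgeR adjusted p = 0.00433). The kinase gene Mylk4 averaged 0.69 ± 0.378 and 19.2 ± 15 CPM (edgeR adjusted p = 0.00899), and Myzap, a protein of cell junctions in the heart, averaged 0.302 ± 0.357 and 14.4 ± 14.6 CPM (SD, n = 4; edgeR adjusted p = 0.0112). Pde2a, a phosphodiesterase of cyclic nucleotides, averaged 2.41 ± 1.74 and 25.2 ± 16.7 CPM (edgeR adjusted p = 0.0478). Arpp21, a cyclic AMP-regulated phosphoprotein, averaged 2.84 ± 1.45 and 15.9 ± 8.16 CPM (edgeR adjusted p = 0.04). Mycl, a MYC family factor, lay below the 2 CPM average set for naming and is named here after its values were seen. It had 1 count in CD34Hi and 91 in CD34Med (pooled ratio 83.0, 14.5 to 3313; edgeR adjusted p = 0.038).

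The CD34Med libraries differed in level across the called genes. With each gene's CD34Lo mean set at 100%, the median over the 27 genes was 59.8% in CD34Med library 1, 20.0% in library 2, 8.93% in library 3 and 29.8% in library 4. The 4 CD34Hi libraries had medians of 0.158% to 1.07%, and the CD34Lo libraries of 53.8% to 125%. CD34Med library 1 was the highest of its gate for 23 of the 27 genes and library 3 the lowest for 20 of 27. In CD34Lo, library 3 was likewise the lowest for 22 of 27. CD34Med library 3 also had the highest summed level of immune markers, 705 CPM against 61.5 to 244 CPM in the other CD34Med libraries and 111 to 338 CPM in CD34Hi, beside its high ribosomal protein sum. The part of either in the levels by library was not tested. Without the 3 libraries numbered 3, 34 genes were called, 25 of them among the 27.

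**Figure D3:**
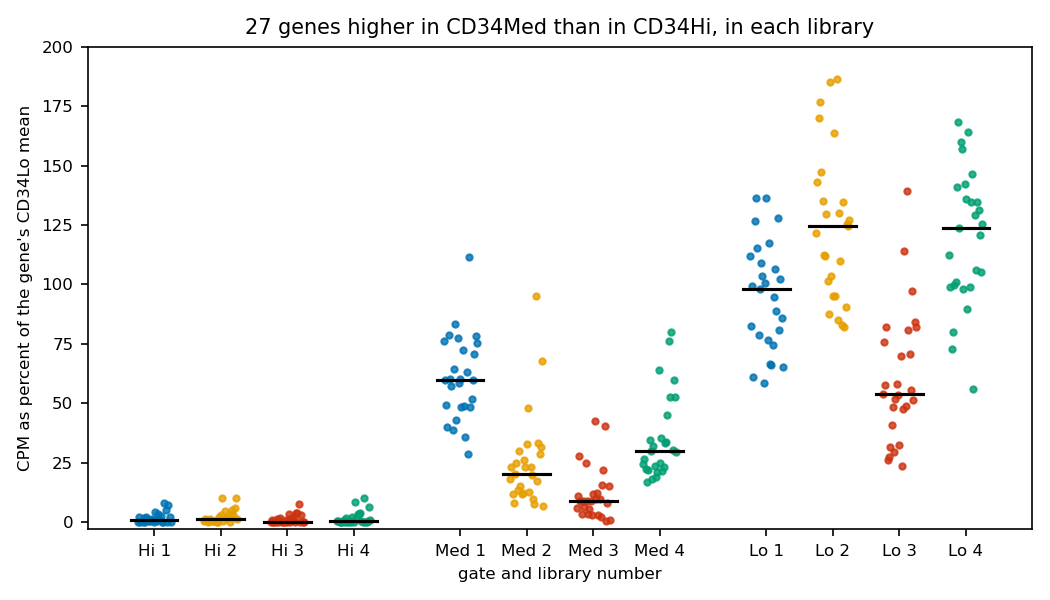
Level of the 27 called genes in each of the 12 libraries, as percent of the gene's mean in CD34Lo; each point is a gene, the colour is the library number and the bar is the median. The CD34Hi medians lie between 0.158% and 1.07%, and the CD34Med medians are spread from 8.93% in library 3 to 59.8% in library 1.

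The next step of falling CD34, from CD34Med to CD34Lo, had 0 of 12133 genes past the threshold by edgeR (458 at an unadjusted p under 0.05, or 3.77%; DESeq2 called 6). Across both steps, CD34Lo against CD34Hi, edgeR called 113 genes (0.931%), 96 higher (0.791%) and 17 lower (0.14%). All 27 called genes had a mean in CD34Med between those of CD34Hi and CD34Lo. The CD34Med mean was 18.3% to 74.7% of the CD34Lo mean, with a median of 30.1% over the 27 genes. Mybph stood lowest on this scale at 18.3% and Mycl highest at 74.7%, with Adam12 at 53.5% and Rbm24 at 51.3% next below Mycl, and Myog at 31.1%. For Myog the log2 differences were 7.31 from CD34Hi to CD34Med and 1.69 from CD34Med to CD34Lo, and for Cdkn1c 4.77 and 1.64. For Adam12 they were 3.60 and 0.90, and for Arpp21 2.45 and 1.51. These differences share libraries and are given side by side, not as support for each other. The 3 genes with the smallest p between CD34Med and CD34Lo were Tnmd, Six4 and Mybph, at log2 differences of -6.65, 1.99 and 2.45 (edgeR adjusted p = 0.871 for each). Tnmd is a tenocyte marker. At this step 0 of 6 tested tenocyte markers had a log2 difference above 0, with a median of -2.45. Of the 6, 3 were lower at an edgeR unadjusted p under 0.05. Six4, a homeobox factor of myogenesis, averaged 6.15 ± 1.79 CPM in CD34Hi, 7.43 ± 2.90 CPM in CD34Med and 29.5 ± 9.97 CPM in CD34Lo (SD, n = 4).

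Whether a gene lies above or below the log-scale midpoint of CD34Hi and CD34Lo in the middle gate was tested directly. By edgeR without a block 0 genes passed, with 163 at an unadjusted p under 0.05 (1.34%). The smallest p belonged to Myog, 2.81 ± 0.47 log2 units above the midpoint (edgeR adjusted p = 0.197). Actc1 and Tnnt2 followed at 3.04 and 2.83 log2 units (edgeR adjusted p = 0.55 for each). Tnnt2 had a single count in CD34Hi, so its midpoint, and with it the distance, is poorly fixed. DESeq2 called 1 gene. With the library number as a block, edgeR called Myog alone, 2.44 log2 units above the midpoint (edgeR adjusted p = 0.034). Without the filter on low counts edgeR called 1 gene, and without the libraries numbered 3 it called 1.

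Cd34 itself, which the gates were set on, was lower from gate to gate, without passing the test between CD34Hi and CD34Med. It read 375, 683, 298 and 616 CPM in CD34Hi, 286, 278, 213 and 209 CPM in CD34Med and 98.4 ± 41.6 CPM on average in CD34Lo (SD, n = 4). The CD34Med libraries all lay below the CD34Hi libraries, as was the case for 0.668% of all genes tested. The log2 fold change was -1.0 ± 0.35 (edgeR unadjusted p = 0.0113, adjusted p = 1). Since the sort used this marker, its order is no finding.

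With 0 genes called lower in the fit without a block, the 8 genes of smallest unadjusted p among those lower in CD34Med and averaging at least 8 CPM are given as values. Ugp2, which makes UDP-glucose, read 178, 336, 262 and 261 CPM in CD34Hi and 123, 117, 130 and 113 CPM in CD34Med (log2 fold change -1.10 ± 0.26, edgeR adjusted p = 0.156). Oxtr, the oxytocin receptor, read 93.8, 54.2, 112 and 96.3 CPM against 30.5, 14.5, 25.7 and 36.0 CPM (log2 fold change -1.74 ± 0.41, edgeR adjusted p = 0.156). For both the gates did not overlap, and for both the CD34Lo mean was close to the CD34Med mean, at 97.8 ± 17.6 and 25.2 ± 15.9 CPM. The matrix protein Vtn averaged 425 ± 115 and 232 ± 47.7 CPM with overlapping gates (edgeR adjusted p = 0.767). The hormone gene Pthlh averaged 93.5 ± 27.1 and 35.8 ± 16.4 CPM (edgeR adjusted p = 0.512), and Bmper, a binder of bone morphogenetic proteins, averaged 41.3 ± 11.1 and 17.8 ± 6.28 CPM (SD, n = 4; edgeR adjusted p = 0.737). Ttyh1, Sorcs2 and Klk1 had log2 fold changes of -1.35, -1.52 and -4.59 with edgeR adjusted p of 0.327, 0.503 and 0.615. Klk1, a tissue kallikrein, read 7.45, 49.4, 1.52 and 5.03 CPM in CD34Hi and 0.154, 2.11, 0 and 0.166 CPM in CD34Med. Library 2 was the highest of both gates, and without CD34Hi library 2 the log2 fold change of Klk1, CD34Med against CD34Hi, was -2.86 (edgeR adjusted p = 1). With the library number as a block, Oxtr and Klk1 passed as lower (log2 fold change -1.73 and -5.02, edgeR adjusted p = 0.0193 and 0.0047).

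**Figure D4:**
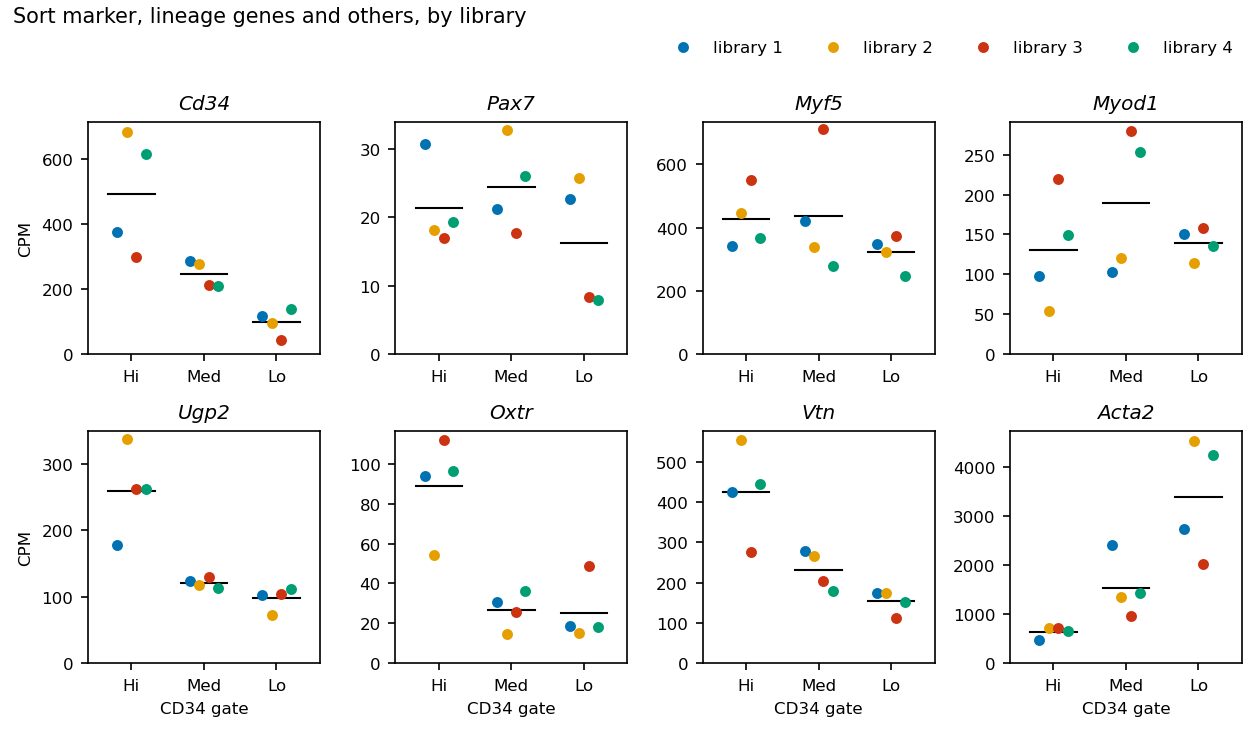
CPM in each library of the 3 gates for the sort marker Cd34, 3 lineage factors, Ugp2, Oxtr, Vtn and Acta2; the colour is the library number, the bar is the mean and each axis starts at 0. None of these genes passed the test between CD34Med and CD34Hi. For Ugp2, Oxtr, Cd34 and Acta2 the CD34Med libraries do not overlap with the CD34Hi libraries.

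Lists of other pathways had no member past the threshold in either direction. These were Notch (22 tested, median 0.06), immediate early and stress genes (37, 0.03), FoxO targets (29, 0.05), insulin-like growth factor signalling (30, 0.07), matrix and adhesion (38, -0.07) and oxidative phosphorylation (81, 0.06). Among FoxO targets, Trim63, a ubiquitin ligase of muscle atrophy, had 0 counts in CD34Hi and was counted in CD34Med library 4 alone, at 4.15 CPM. In the quiescence list, Chrdl2, a satellite cell marker, averaged 147 ± 29.2 CPM in CD34Hi and 87.0 ± 21.7 CPM in CD34Med, and Calcr, the calcitonin receptor, averaged 343 ± 208 and 237 ± 61.3 CPM (SD, n = 4; edgeR adjusted p = 1 for each). The immediate early gene Fos averaged 997 ± 540 and 1584 ± 760 CPM, with overlapping gates. Ribosomal protein genes had 0 of 76 past the threshold, but only 5 of the 76 had a log2 fold change above 0, with a median of -0.16.

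Markers of other cell types also had 0 members past the threshold. Summed over the list, fibroblast markers lay at 6760 to 11330 CPM in CD34Hi and 6144 to 8703 CPM in CD34Med, and 8 of 18 tested had a log2 fold change above 0. Endothelial markers lay at 211 to 574 and 195 to 420 CPM (10 of 13 above 0), tenocyte markers at 837 to 2227 and 765 to 1479 CPM (1 of 6) and Schwann cell markers at 246 to 1073 and 290 to 678 CPM (2 of 6). Red blood cell markers lay at 0 to 4.45 and 0.166 to 2.64 CPM, with 1 gene tested. Immune markers had 17 of 20 above 0. Of the listed markers, 2 of 20 for fibroblasts, 3 of 9 for tenocytes, 3 of 17 for endothelium, 1 of 21 for immune cells, 6 of 13 for Schwann cells and 8 of 9 for red blood cells averaged under 1 CPM over the 8 libraries. Among single markers, the fibroblast receptor gene Pdgfra lay between 0 and 5.02 CPM, the tenocyte factor Scx between 0 and 0.395 CPM, and the Schwann cell factor Sox10 was at 0 in 7 of the 8 libraries, while Ly6a of the fibroblast list reached the 121 CPM given above. Low levels of Pdgfra, Scx and Sox10 do not show that such cells were absent, since the list sums were far higher. Within CD34Med, library 1 had the highest sum for fibroblast and tenocyte markers and library 4 the lowest. The part of such cells in the called genes was not tested.

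Pericyte and smooth muscle markers summed to 862 to 1397 CPM in CD34Hi and 1107 to 2737 CPM in CD34Med, highest in library 1. Most of that sum was Acta2, the smooth muscle actin, which myoblasts also express. Acta2 read 470, 720, 721 and 665 CPM in CD34Hi and 2410, 1349, 954 and 1436 CPM in CD34Med, without overlap (log2 fold change 1.26 ± 0.32, edgeR adjusted p = 0.265). Of the 9 tested markers of this list, 8 had a log2 fold change above 0, with a median of 0.279. The smooth muscle marker Tagln alone read the other way, at 323 ± 177 and 129 ± 50.5 CPM (SD, n = 4). The pericyte marker Rgs5 lay between 3.55 and 14.9 CPM in all 8 libraries. The part of pericytes or smooth muscle cells in the result was not tested.

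The 27 genes were then read in libraries that had no part in calling them, the young WT CD34Hi and CD34Lo cells of experiments 1 to 3, where CD34Lo and not CD34Med is the lower gate. In experiment 1, 15 of the 27 passed the filter on low counts and 15 of these had a log2 fold change above 0. Of them 8 passed edgeR's test as higher and 0 as lower, beside 0.238% and 0.0792% of 11366 genes tested. In experiment 2, 20 passed the filter, 20 were above 0, and 4 passed as higher and 0 as lower, beside 0.0332% and 0.0083% of 12041 genes. In experiment 3, 25 passed the filter, 25 were above 0, and 7 passed as higher and 0 as lower, beside 0.101% and 0.129% of 13929 genes. A gene near 0 in CD34Hi passes the filter only through CD34Lo and had to be higher there, so these counts are a description of the genes that passed. Of the genes that did not pass, Adam12 averaged 1.67 CPM in CD34Hi and 1.45 CPM in CD34Lo of experiment 1, and Myh8 averaged 0.019 and 0 CPM. Myh8 was at 0 in both gates of experiment 2. In experiment 3 Pcp4 averaged 0.12 and 0 CPM, and Mybph 0.169 and 0.0139 CPM.

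Myog and Actc1 were called in each of the 3 experiments. Myog stood at 0.019 ± 0.038 CPM in CD34Hi and 124 ± 87.9 CPM in CD34Lo of experiment 1, at 0.476 ± 0.576 and 94.4 ± 9.89 CPM in experiment 2 (SD, n = 4), and at 1.16 ± 1.08 (n = 3) and 63.9 ± 40.6 CPM (n = 2) in experiment 3. Single CD34Lo libraries ran from 46.1 to 219, 80.2 to 103 and 35.2 to 92.6 CPM, and the lineage-labelled CD34Med libraries from 74.5 to 987 CPM, so these ranges overlap. Experiments were normalised separately, and their levels were not tested against each other. Cdkn1c was called in experiments 1 and 3, at 15.4 ± 12.2 against 255 ± 92.5 CPM and at 34.1 ± 5.87 against 272 ± 118 CPM. Tmem8c was called in experiments 2 and 3, where CD34Hi was at 0 and at 0.0526 ± 0.0528 CPM and CD34Lo at 24.1 ± 7.19 and 12.2 ± 2.14 CPM.

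Acta1, Rbm24 and Mycl were called in experiments 1 and 3, Arpp21 and Pde2a in experiment 1, and Klhl41 in experiment 2. Acta1 differed between experiments in its CD34Hi level, at 2.03 ± 0.95 CPM in experiment 1, 66.3 ± 28.8 CPM in experiment 2 and 2.82 ± 1.42 CPM in experiment 3. The sarcomere genes Ttn and Myl1 had edgeR adjusted p between 0.0533 and 0.99 in the 3 experiments. Mybph and Adora1 each had a log2 fold change of 0.58 in experiment 2, with edgeR adjusted p of 0.952 and 0.926.

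**Figure D5:**
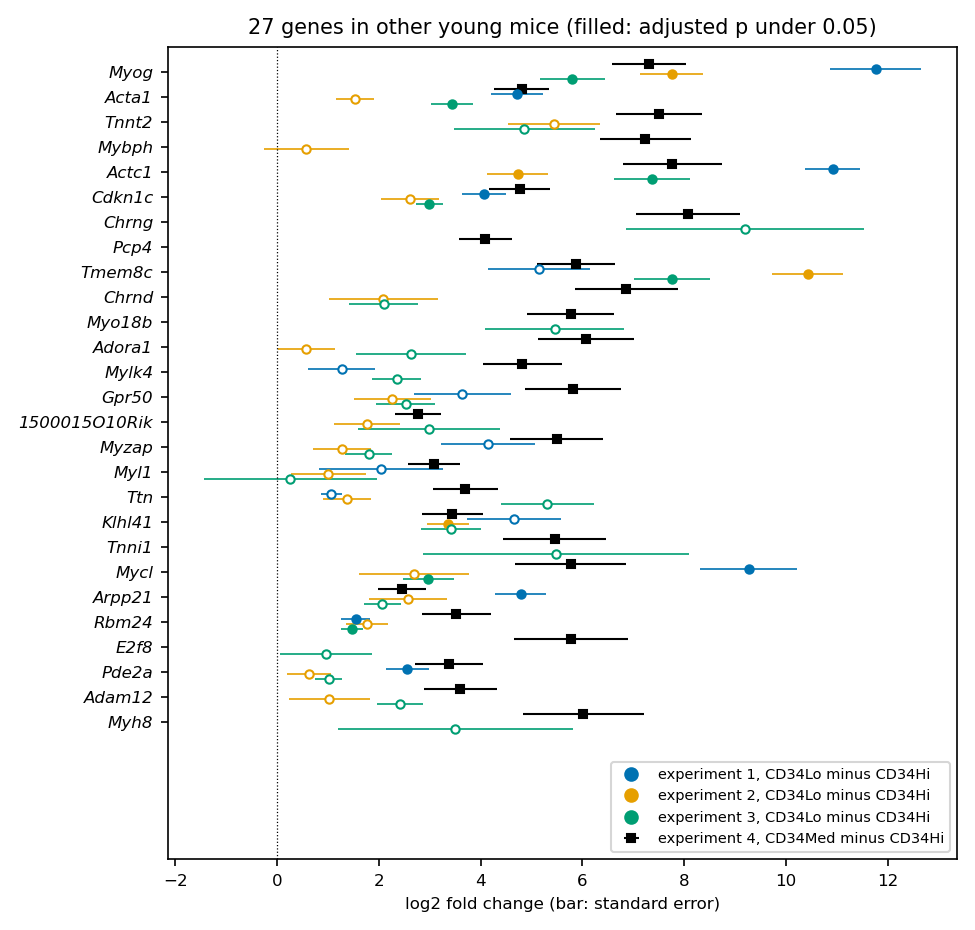
Log2 fold change with its standard error for the 27 genes, as CD34Med minus CD34Hi in the lineage-labelled cells (black squares) and as CD34Lo minus CD34Hi in young WT cells of experiments 1 to 3 (coloured points, filled where the adjusted p is under 0.05). The plotted points lie to the right of 0; 15, 20 and 25 of the genes passed the filter in experiments 1, 2 and 3, and the rest are not plotted.

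The number of called genes depended on single libraries. It was 12 without CD34Hi library 1, 12 without CD34Hi library 3, 17 without CD34Med library 1, 17 without CD34Med library 4, and 12 in a fit of the 8 libraries alone. Of the 26 genes named by rule, Chrng, Actc1, Tnnt2, Myog, Mybph, Chrnd, Adora1, Tmem8c, Myo18b, Acta1, Cdkn1c and Pcp4 stayed past the threshold in each of the 8 omissions, 12 in all, and 14 were lost in at least 1. Pde2a stayed in 1 of the 8, Myh8, E2f8 and Adam12 in 2, and Ttn, Tnni1, Rbm24, Klhl41 and Arpp21 in 3. Myzap stayed in 5, and Gpr50, Mylk4, Myl1 and 1500015O10Rik in 6. With the library number as a block, Tnni1, Mycl, Rbm24, E2f8 and Myh8 were not called.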

How the data were processed

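The values used are the authors' deposited counts of reads per gene (24421 symbols), with no normalization. Per the submitters' processing notes, the tools were HTSeq, Partek 7.0, TopHat2 2.1.1, Trim Galore and bcl2fastq 2.17.1, and the build was mm10. The annotation, strand setting, multi-mapping setting and order of steps: not given in the sources used here. Per the labels' protocols, libraries were made from sorted cells with SMART-Seq v4 and Nextera XT. Columns were assigned to a gate by name, without tying a column to one sample.

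Counts were analysed in edgeR 4.0.16 (R 4.3.3) with TMM scaling, filterByExpr (minimum count 10, minimum total 15) and the quasi-likelihood test, with the 12 libraries of the experiment sharing 1 dispersion fit, and p-values adjusted by Benjamini-Hochberg over all genes tested at 0.05. CPM were taken over TMM-scaled totals. DESeq2 1.42.0 was an alternative, beside other scaling, no filter, a block on library number, the 8 libraries alone and leaving out each library. The edgeR script was tested on simulated data. Fits without the 3 libraries numbered 3 were added after the ribosomal protein level of those of CD34Hi and CD34Med was seen.

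Named were called genes averaging at least 2 CPM over the 8 libraries, 6 lineage genes, up to 4 genes of smallest p from each list, 8 lower genes averaging at least 8 CPM, and the 3 genes of smallest p for the other steps. The comparison, members and lists were chosen with earlier results of these data known.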

Additional observations from a re-analysis of the deposited data

Results flagged for a closer look

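Of 67 groups of 4 libraries examined (a named gene in a gate), 3 had 1 library far from the other 3 by Dixon's criterion; chance gives about 1 group in 20. Pax7 in CD34Hi library 1 was 30.7 CPM, with the other CD34Hi libraries at 17.0 to 19.3 CPM. Klk1 in CD34Hi library 2 was 49.4 CPM, with the others at 1.52 to 7.45 CPM. Klk1 in CD34Med library 2 was 2.11 CPM, with the others at 0 to 0.166 CPM.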

How the results depend on the processing

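Against the 27 genes called between CD34Med and CD34Hi, edgeR with RLE size factors called 27, DESeq2 63 and edgeR without the filter 40, and each of these held all 27. The 8 libraries alone gave 12 genes, and leaving out 1 library gave 12 to 39, the highest without CD34Med library 3. For CD34Lo against CD34Med, DESeq2 called 6. For the midpoint, DESeq2 called 1, the fit without the filter 1, the fit without the libraries numbered 3 1, and the omissions 0 to 2. CD34Lo against CD34Hi (113 genes) gave 270 by DESeq2 and 65 to 119 over omissions. Look-up experiment 1 (36 genes in both directions) gave 157 by DESeq2, 62 without the filter and 18 to 35 over omissions. Experiment 2 (5) gave 58 by DESeq2 and 2 to 44 over omissions, the highest without CD34Lo library 4. The look-up: young CD34Lo against CD34Hi, experiment 3 (32) gave 257 by DESeq2, 337 without the filter, and 1 (without CD34Hi library 1) to 104 (without CD34Lo library 2) over omissions. The cause of these differences was not tested. A replicate block on the library number gave 36 genes for CD34Med against CD34Hi, 32 higher and 4 lower (Klk1, Oxtr, Neu2 and Gal), with 22 of the 27 among them; it gave 215 for CD34Lo against CD34Hi, 1 for the midpoint (Myog, edgeR adjusted p = 0.034), and turned the log2 fold change of Myf5, CD34Med against CD34Hi, to -0.026. Deviations of same-numbered CD34Hi and CD34Med libraries correlated at -0.05, 0.21, 0.53 and 0.36, and 3 of 4 CD34Med libraries correlated best with their own number, a hint from the data and not from the design. Same-numbered CD34Hi and CD34Lo libraries correlated at 0.289, 0.227, 0.223 and 0.23 in these deviations. Same-numbered CD34Med and CD34Lo libraries correlated at 0.0569, 0.193, 0.141 and 0.28. No paired analysis was possible for the look-ups because their columns carry no shared numbers. No called gene that was named by rule changed sign in the alternatives in which it passed the filter. Genes near 0 did: without the libraries numbered 3, Myf5 was -0.14 and the value for Vcam1, CD34Med against CD34Hi, was -0.022, and over omissions Myf5 ran from -0.30 to 0.20, Myf6 from -0.26 to 0.25, Itga7 from -0.14 to 0.40, Vcam1 from -0.11 to 0.37, Cdh15 from -0.18 to 0.90 and Des from -0.29 to 0.042. Depth limits the sizes for the 9 genes with 1 to 3 counts in CD34Hi.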

Other observations

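Transcripts linked to sex differed between library numbers more than between gates. Xist stood at 1118, 185, 864 and 837 CPM in CD34Hi libraries 1 to 4 and at 940, 223, 606 and 1470 CPM in CD34Med libraries 1 to 4. The Y-linked gene Ddx3y stood at 249, 981, 38.5 and 141 CPM in CD34Hi and at 252, 503, 68.6 and 113 CPM in CD34Med. In both gates the libraries numbered 2 had the lowest Xist and the highest Ddx3y, and the order of the 4 numbers by Ddx3y was the same in CD34Hi, CD34Med and CD34Lo (252, 427, 30.3 and 131 CPM). Both transcripts were counted in each of the 8 libraries. Neither passed the test between the gates (edgeR adjusted p = 1 for each).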
